A study of Mus musculus with 35 samples.

Results

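S100g, 3830417A13Rik, Epas1 and Cdkn1c are 4 genes chosen for their large rise when Oct4 was depleted by siRNA during GATA6 induction in mouse ES cells. They were picked by symbol from the 44853 gene symbols of the induction table, and all 4 are also among the 6275 GATA6-responsive genes of the siRNA table. By the mean log2 difference between the siRNA groups they ranked 1, 2, 3 and 5 of 6264 genes, and Krt19 ranked 4. The fifth, Cdkn1c, stood at 2.40, and the next gene outside, Rhox6, at 2.36. Because these differences chose the members, they are given below as a description with no test. The induction libraries did not enter this ranking and were tested. However, the siRNA table holds only genes that the authors called GATA6-responsive against untreated cells in the induction series. A call at some Dox time was therefore favoured in advance.

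The RNA-seq libraries came from KH2 ES cells of C57BL/6 x 129/Sv background carrying a transgene for HA-tagged GATA6 that doxycycline (Dox) switches on, grown with LIF on fibroblast feeders that were adsorbed away before lysis. Untreated cells (0 h) and cells given Dox at 1 µg/mL for 16, 24, 48, 72, 96 or 168 h had 3 libraries each. XEN cells, 2 libraries of the X10 line from wild-type CD1 embryos, served as the reference for primitive endoderm (PrE). They were given no Dox and grown on feeders in serum medium, for which the methods name no LIF. They differ from the ES cells in line, strain, transgene and medium. These and cell type cannot be told apart in any XEN comparison, nor can Dox in a comparison with Dox-treated cells. For the siRNA series, cells of 1 inducible clone were nucleofected with a non-targeting pool (siCTL) or a pool against Pou5f1, the gene of Oct4 (siOct4), plated directly into Dox and collected after 48 h, with 6 libraries each. Values are TPM, which adjust for gene length and set each library to 1 common total. The sequencing depth behind them is unknown.

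Pou5f1 fell from 782 to 1194 TPM in siCTL libraries to 282 to 387 TPM in siOct4 libraries, with no overlap, so the knockdown matched its labels. Gata6 was at 0.193 to 0.375 TPM at 0 h and at 122 TPM or more in every Dox library of the induction series. In the siRNA series, also in Dox, it was at 92.6 to 198 TPM with siCTL and at 51.2 to 130.2 TPM with siOct4. It was lower with siOct4 in 6 of 6 same-numbered pairs, by a mean of −0.50 on the log2(TPM + 1) scale. The limma adjusted p of 0.326 came from the fit without pairing, and the part of Gata6 in the members' values was not tested. At 168 h, 14 of 16 ES cell markers were lower than at 0 h and 17 of 19 parietal and 16 of 18 visceral endoderm markers were higher (limma). In the siRNA series, libraries with consecutive numbers within a group (1 and 2, 3 and 4, 5 and 6) correlated at 0.978 to 0.99 across genes, except siCTL 3 and 4 at 0.938, while other libraries of a group correlated at 0.929 to 0.969. The titles do not say whether consecutive libraries share an experiment, so that 6 libraries or pairs below may stand for as few as 3 experiments, and the SD over them would then understate the spread between experiments. The summed TPM of feeder fibroblast markers ranged from 134 to 343 at 0 h, from 286 to 529 at 168 h, from 42.7 to 317 in siCTL and from 48.3 to 333 in siOct4 libraries.

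S100g encodes calbindin-D9k, a small cytosolic protein of the S100 family that binds calcium through EF hands and is known from calcium-transporting epithelia such as intestine, uterus, placenta and yolk sac. Epas1 encodes HIF-2α, a transcription factor subunit that is hydroxylated and degraded when oxygen is ample and otherwise pairs with ARNT at hypoxia response elements. Cdkn1c encodes p57Kip2, a CIP/KIP inhibitor of cyclin-dependent kinases that restrains growth, is expressed from the maternal chromosome and is prominent in placenta. 3830417A13Rik is a protein-coding gene known by its RIKEN identifier. Oct4 is a pluripotency factor of the epiblast whose loss from ES cells is known to open the way to trophoblast.

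In the GENCODE M21 annotation of mm10, S100g (ENSMUSG00000040808.4) spans chromosome X from 162961992 to 162964599 on the minus strand, with 3 exons, and lies inside Ctps2, which runs on the opposite strand. 3830417A13Rik (ENSMUSG00000031179.14) spans X from 64173548 to 64178778 on the plus strand, with 4 exons. Epas1 (ENSMUSG00000024140.10) spans chromosome 17 from 86753700 to 86833410 on the plus strand, with up to 16 exons. Cdkn1c (ENSMUSG00000037664.13) spans chromosome 7 from 143458339 to 143461050 on the minus strand, with 2 to 4 exons in 5 transcripts, and overlaps the antisense gene Gm44732. The libraries were stranded and quantified with strand, which is meant to separate the opposite-strand partners. How fully it did so was not tested.

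The promoters of the first 2 members, both on chromosome X, are shown because RefSeq sequence (GRCm38.p6) was matched for these 2 of the 4 members. The sequences run 5′ to 3′ on the gene's strand from 250 bases before the start site through the first 10 bases of the transcript, at chrX:162964590-162964849 (minus strand) for S100g and at chrX:64173298-64173557 (plus strand) for 3830417A13Rik. Capitals mark matches, on either strand, to the motifs that were searched.
S100g: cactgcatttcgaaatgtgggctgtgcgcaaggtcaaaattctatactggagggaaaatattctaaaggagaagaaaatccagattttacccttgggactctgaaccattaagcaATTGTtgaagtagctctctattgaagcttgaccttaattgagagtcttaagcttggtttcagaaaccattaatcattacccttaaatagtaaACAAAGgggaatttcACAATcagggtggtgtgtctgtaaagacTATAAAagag
3830417A13Rik: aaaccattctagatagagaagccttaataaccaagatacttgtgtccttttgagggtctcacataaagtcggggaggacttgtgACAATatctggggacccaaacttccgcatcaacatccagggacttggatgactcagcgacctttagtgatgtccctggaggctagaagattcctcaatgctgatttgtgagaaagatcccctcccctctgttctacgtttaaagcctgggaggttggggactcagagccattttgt

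In the window of 250 bases before and 50 after the start site, S100g held the SOX-type motifs ACAAAG at −43 and ACAAT at −28 and, reversed, at −135, and TATAAA at position 1. 3830417A13Rik held ACAAT at −166 and, reversed, the hypoxia-element core GCGTG at 41. Of 32851 mouse promoters of the same length, 18.7% held ACAAAG, 31% ACAAT, 13.6% TATAAA and 32.4% GCGTG on either strand. The letters of AGATAA, a motif of GATA type held by 11.2% of promoters, were in neither window, nor were ATGCAAAT (octamer, 1.74%), ACGTG (19.6%) and GGGCGG (GC box, 35.7%). Only exact letters were searched. Other sequences of GATA type, such as AGATAG in the printed 3830417A13Rik sequence, were not counted. Each motif was counted separately.

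All 4 members were higher in siOct4 than in siCTL in 6 of 6 same-numbered pairs, and in none of them did the groups overlap. The choice by large rises favours both, and the share of all genes that did the same was not counted. In the order of libraries 1 to 6, siCTL had 8.48, 6.26, 23.7, 11.6, 5.07 and 4.06 TPM of S100g, and siOct4 had 44.8, 49.9, 209, 142, 61.3 and 72.9 TPM. Both groups had their highest values in libraries 3 and 4. The pair ratios lay between 5.28 and 18, and the mean difference was 3.15 ± 0.562 (SD, n = 6 pairs) on the log2(TPM + 1) scale, on which all differences below are given.

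In the same order, 3830417A13Rik had 9.86, 12.1, 4.25, 3.72, 15.7 and 15.9 TPM with siCTL, against 43, 41.3, 33.8, 34.1, 149 and 139 TPM with siOct4. Here libraries 5 and 6 were highest and 3 and 4 lowest in both groups, the reverse of S100g for libraries 3 and 4. Its difference was 2.59 ± 0.597 (SD, n = 6 pairs), with pair ratios from 3.42 to 9.49.

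Epas1 was measured with siCTL at 2.79, 2.73, 4.02, 8.51, 3.13 and 5.88 TPM, and with siOct4 at 21.9, 10.2, 30.1, 51.8, 33.1 and 31.5 TPM. Library 4 was highest in both groups and library 2 lowest in both, and the gap between the groups was the narrowest of the 4 members, from 8.51 to 10.2 TPM. The difference was 2.43 ± 0.489 (SD, n = 6 pairs).

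For Cdkn1c the control values were 13.2, 10.7, 7.54, 10, 16.5 and 15.1 TPM, and the siOct4 values 41.8, 38.8, 48.3, 54.5, 130.1 and 152 TPM. As for 3830417A13Rik, libraries 5 and 6 were highest in both groups. The difference was 2.40 ± 0.638 (SD, n = 6 pairs), and Krt19, a simple epithelial keratin that is no member, had 2.42 ± 0.445. The same siOct4 libraries 5 and 6 had the highest summed trophoblast markers (2062 and 2194 TPM, against 917 to 1215 in the other 4) and feeder markers (333 and 299 TPM, against 48.3 to 101). They also had the lowest summed ES cell markers (5583 and 5807 TPM, against 9831 to 12497 in the other 4). In siCTL libraries 5 and 6 the feeder sum was 60.2 and 72.5 TPM. The part of these markers in the members' values was not tested.

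**Figure D1:**
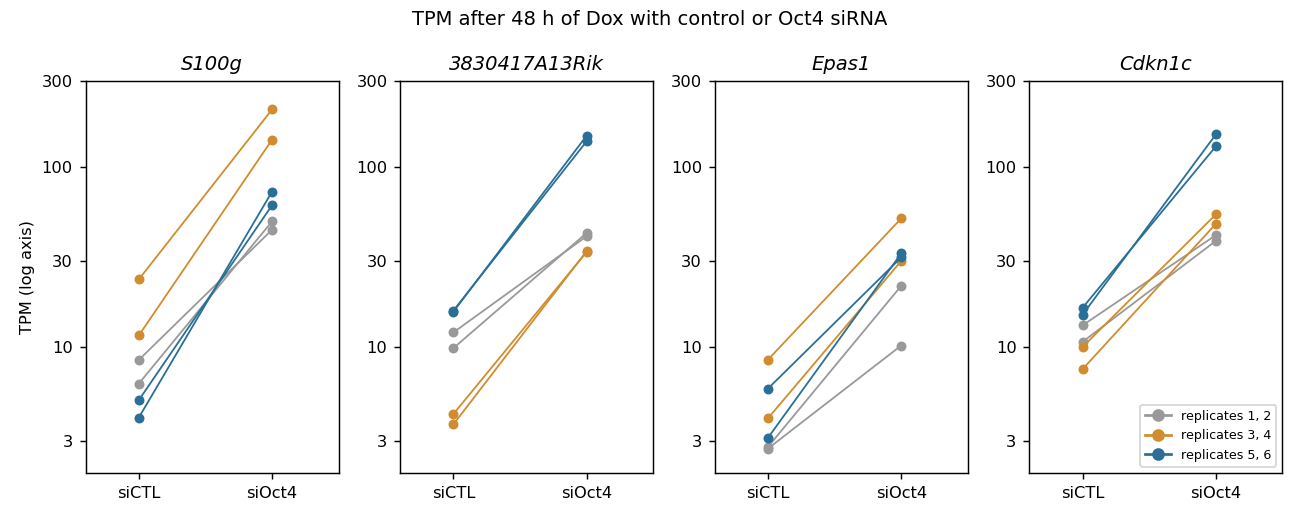
TPM of each member (log axis) in 6 siCTL and 6 siOct4 libraries, 1 panel per gene. Lines join libraries with the same replicate number, colours mark consecutively numbered libraries, and every line rises while the order of the colours differs between genes.

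In the induction series the 4 members followed different courses. After 16 h and after 24 h, 1 of the 4 was called changed (2.77% and 5.68% of all 15057 genes tested were called), after 48 h and after 72 h 3 were (16.4% and 26.2%), after 96 h all 4 (29.5%) and after 168 h 2 (39.1%). A call needed a limma adjusted p under 0.05 and a log2 difference above 1 from 0 h. The shares here and below are over all genes tested. The members were limited to genes the authors had called GATA6-responsive, so these shares are not a matched background. S100g rose to 168 h, 3830417A13Rik and Cdkn1c peaked at 72 h and came back, and Epas1 fell first and then climbed far above its starting level. Because these are bulk samples, more cells expressing a gene and more RNA per cell cannot be told apart.

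S100g was listed at 0 TPM in all 6 libraries at 0 and 16 h, and the 24 h libraries had 1.34, 0.527 and 0 TPM. After 48 h it stood at 10.3, 13.6 and 15.6 TPM and after 72 h at 52.2, 45.5 and 18.9 TPM. The 96 h libraries had 89.3, 78.3 and 57.1 TPM and the 168 h libraries 109, 90.9 and 214 TPM. From 48 h on, every library was above every library at 24 h or earlier, and each later time had a higher mean, of 13.2, 38.8, 74.9 and 138 TPM. In XEN cells it was at 19 and 20.2 TPM, below all libraries at 96 and 168 h.

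Against the group listed at 0 no fold is given. On the log2(TPM + 1) scale S100g was higher at 48 h by 3.81 ± 0.34 (SE, limma adjusted p = 1.96e-08) and at 168 h by 7.02 ± 0.34 (adjusted p = 6.61e-13). The step from 24 to 48 h was 3.20 (limma adjusted p = 1.05e-06). The step from 48 to 72 h was 1.39 (adjusted p = 0.00524 by limma), but missed the threshold with a pseudocount of 0.1, without the filter and with only both compared groups in the fit (adjusted p = 0.0723 to 0.0987). The step from 72 to 96 h, 1.03 with a limma adjusted p of 0.047, was lost without 72 h replicate 2 (1.20) or 3 (0.59) and without 96 h replicate 1 (0.89) or 2 (0.98). It was also lost with the replicate block (limma adjusted p = 0.0562), with only both compared groups (0.234), with a pseudocount of 0.1 (0.247) and without the filter (0.506). From 96 to 168 h the difference was 0.80 (limma adjusted p = 0.0687), although without 168 h replicate 2 it was 1.04 and called (adjusted p = 0.0353). XEN cells differed from 168 h cells by −2.65 ± 0.38 (SE, limma adjusted p = 1.39e-05), and the mean at 168 h was 7.04 times that of XEN cells.

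3830417A13Rik was low in ES cells, at 2.41, 2.36 and 1.07 TPM, and overlapped this range at 16 h with 1.73, 2.43 and 3.98 TPM. The 24 h libraries had 2.79, 2.69 and 3.19 TPM, those of 48 h 6.14, 6.41 and 6.39 TPM, and those of 72 h 13.8, 12.7 and 8.31 TPM. Values were 8.04, 6.62 and 11.8 TPM after 96 h, and 2.03, 1.65 and 4.03 TPM after 168 h, when they overlapped the untreated cells again. In XEN cells it was at 0.182 and 0.0809 TPM, the lowest values of the series.

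The rise of 3830417A13Rik over 0 h was 1.35 ± 0.26 at 48 h, 2.11 ± 0.26 at 72 h and 1.74 ± 0.26 at 96 h (SE, limma adjusted p from 8.74e-07 to 0.000235). Its peak mean, 11.6 TPM at 72 h, was 5.97 times the mean at 0 h, and the 96 h mean of 8.82 TPM did not differ from it beyond the threshold (−0.37, limma adjusted p = 0.356). From 96 to 168 h it fell by 1.48 (limma adjusted p = 0.00017), and at 168 h it was 0.26 from 0 h (adjusted p = 0.382). XEN cells were below 0 h cells (−1.34 ± 0.29, limma adjusted p = 0.000437) and below 168 h cells (−1.60 ± 0.29, adjusted p = 0.000171).

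Epas1 was at 14.8, 13.3 and 14.5 TPM at 0 h and fell without overlap to 4.7, 5.82 and 4.01 TPM after 16 h of Dox. It fell further, to 2.48, 3.04 and 3.18 TPM after 24 h and to 1.99, 1.9 and 1.34 TPM after 48 h. The 72 h libraries were back at 17.2, 16.1 and 9.42 TPM, the 96 h libraries had 54.8, 51.5 and 27.2 TPM, and those of 168 h had 268, 249 and 290.0 TPM. The XEN libraries had 215 and 226 TPM. The 48 h libraries were thus the lowest and the 168 h libraries the highest of the 23.

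The fall of Epas1 was called at 16 h (−1.39 ± 0.22), 24 h (−1.97 ± 0.22) and 48 h (−2.48 ± 0.22; limma adjusted p = 1.37e-08 at 48 h). At 72 h the difference from 0 h was −0.04 (limma adjusted p = 0.891). It was then higher by 1.52 ± 0.22 at 96 h and 4.15 ± 0.22 at 168 h (adjusted p = 1.84e-12, limma), where the mean of 269 TPM was 18.9 times the mean at 0 h and 154 times the 48 h mean. The steps from 48 to 72 h (2.44), 72 to 96 h (1.56) and 96 to 168 h (2.63) were each called, the middle step not with only both compared groups in the fit (adjusted p = 0.11 by limma). XEN cells differed from 168 h cells by −0.28 ± 0.24 (SE, limma adjusted p = 0.358).

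Cdkn1c had 16.4, 19 and 8.6 TPM in untreated cells and 8.91, 9.63 and 9.88 TPM after 16 h. The 24 h libraries had 10.4, 12 and 13.2 TPM and the 48 h libraries 14, 20.4 and 18.7 TPM. It reached 64.1, 56 and 36.4 TPM after 72 h, had 30.4, 28.8 and 52.4 TPM after 96 h, and returned to 10.8, 13.1 and 14.5 TPM after 168 h. XEN libraries had 0.698 and 0.769 TPM. All 72 and 96 h libraries lay above all others, and both XEN libraries below all others.

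Against 0 h, Cdkn1c was higher at 72 h by 1.79 ± 0.25 (SE, limma adjusted p = 4.35e-06) and at 96 h by 1.30 ± 0.25 (adjusted p = 0.000154). The latter call was lost without 0 h replicate 3, where the difference was 0.98, and that library had the lowest Cdkn1c of its group and the highest feeder marker sum, 343 TPM. The step from 48 to 72 h was 1.49 (limma adjusted p = 0.000279), and from 96 to 168 h it fell by 1.42 (adjusted p = 0.00018). The XEN difference was −3.11 ± 0.28 from 0 h (limma adjusted p = 8.63e-09) and −2.99 ± 0.28 from 168 h (adjusted p = 7.84e-08), and the mean at 168 h was 17.5 times that of XEN cells.

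**Figure D2:**
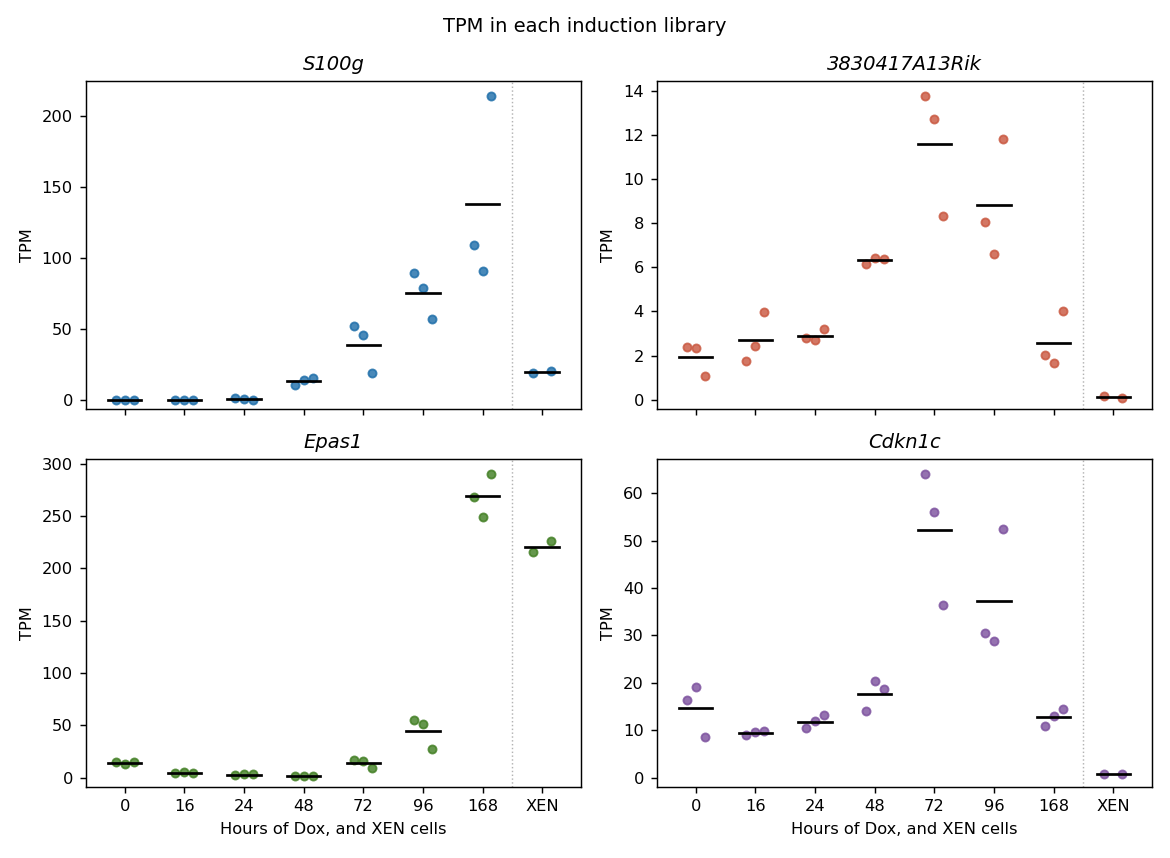
TPM of each member in every induction library (points) with the group mean (bars), by hours of Dox and in XEN cells, on a linear axis of its own per gene. S100g and Epas1 are highest at 168 h, and 3830417A13Rik and Cdkn1c at 72 h.

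From each time to the next, limma called 0 of the 4 members between 16 and 24 h (0.352% of all genes), 1 from 24 to 48 h (5.56%), 3 from 48 to 72 h (3.33%), 2 from 72 to 96 h (1.71%) and 3 from 96 to 168 h (7.67%). In the step with 0 calls, 1 member was under an unadjusted p of 0.05, Epas1 (−0.58, limma adjusted p = 0.196). Against 0 h, 2 members were higher and 2 lower in XEN cells (37.6% of all genes were called), and against 168 h 3 were lower and 0 higher (13.9%). Pou5f1 itself averaged 1654 TPM before Dox, 1169, 892, 500.1 and 63.4 TPM after 48, 72, 96 and 168 h, and 0.202 TPM in XEN cells.

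**Figure D3:**
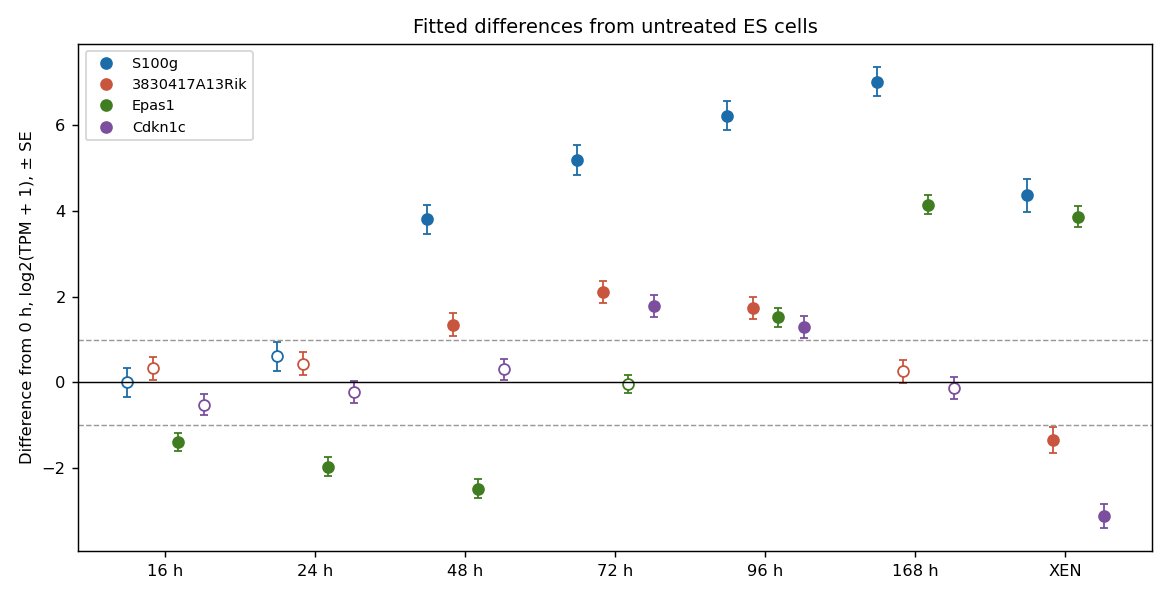
Fitted differences from 0 h on the log2(TPM + 1) scale with their SE, for each Dox time and XEN cells. Filled points were called at an adjusted p under 0.05 and a difference past 1 (dashed lines), and Epas1 is the member that goes from called lower at 48 h to called higher at 96 h.

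Replicates also differed in ways the members shared. The third replicate at 72 h was the lowest of its group for all 4 members, and it had the highest feeder sum (438 against 146 and 170 TPM) and the lowest parietal endoderm sum (12012 against 16574 and 17113 TPM). The third replicate at 168 h was the highest for all 4 and had a feeder sum of 529 against 286 and 304 TPM. It also had the highest ES cell marker sum (2799 against 2009 and 1982 TPM) and the lowest visceral endoderm sum (1408 against 2170 and 2027 TPM). At 96 h, replicate 3 was highest for 3830417A13Rik and Cdkn1c and lowest for S100g and Epas1. The part of these sums in the members' values was not tested.

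Over the 8 group means of log2(TPM + 1), 3830417A13Rik and Cdkn1c correlated at 0.948 and S100g and Epas1 at 0.641, while the other 4 pairs of members lay between −0.434 and 0.299. These are descriptions over groups that share a time course. Among the 9357 genes whose means spanned at least 1, the most alike to S100g were Flcn (0.999), Rras2 (0.997) and Hoxb4 (0.997), and to Epas1 Adam19 (0.989), Slc12a4 (0.989) and Lif (0.984). For 3830417A13Rik they were 5430403G16Rik (0.985), Cnksr1 (0.985) and C2 (0.984), and for Cdkn1c Trim2 (0.984), Pafah2 (0.978) and Rhox9 (0.975), a placental homeobox gene that went from 14.7 TPM at 0 h to 84.7 TPM at 72 h and 9.26 TPM at 168 h.

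The levels under siRNA were also set beside the Dox course, without a test because the tables come from separate experiments. All 6 siOct4 libraries exceeded every 48 h Dox library for each member. For 3830417A13Rik, all 6 exceeded every library of the whole course, whose highest value was 13.8 TPM, and so did 2 of the 6 siCTL libraries. For S100g 4 of the 6 exceeded every 72 h library and 0 every 168 h library. For Epas1 5 of 6 exceeded every 72 h library and 0 every 96 h library, and for Cdkn1c 2 exceeded every 72 h library. The control libraries were not level with the Dox course either. More than in every 48 h Dox library was measured in all 6 siCTL libraries for Epas1, whose highest 48 h value was 1.99 TPM, in 4 of 6 for 3830417A13Rik, in 1 for S100g and in 0 for Cdkn1c.

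Genes linked to the members by function or place were then examined in both experiments. Under siOct4, 167 of 6264 genes tested were called at a limma adjusted p under 0.05 and a difference above 0.5 (2.67%), 59 higher and 108 lower, around a median of −0.12. After median-of-ratios rescaling the median was 0.01 and the split 144 higher and 152 lower. With the replicate block, which pairs same-numbered libraries, it was 152 and 385. With consecutively numbered libraries averaged, limma called 0 genes, although 437 had an unadjusted p under 0.05.

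Cdkn1c lies in an imprinted cluster of distal chromosome 7, and 2 of the 6 other cluster genes tested rose under siOct4 with 0 lower. Phlda2, a maternally expressed gene that limits placental growth and lies 40.5 kb away, went from 36.9 ± 13.1 to 138 ± 48.7 TPM (SD, n = 6; 1.87 ± 0.30 SE, limma adjusted p = 0.00303). Ascl2, which encodes a transcription factor of the spongiotrophoblast lineage, went from 3.39 ± 1.37 to 9.37 ± 4.27 TPM (SD, n = 6; 1.20 ± 0.28 SE, limma adjusted p = 0.0343). Ascl2 was no longer called when pair 1, 2, 4, 5 or 6 was left out, and Phlda2 was called without each pair. Slc22a18, 12.7 kb from Cdkn1c, had 0.75 (limma adjusted p = 0.0652) and was called with the replicate block (adjusted p = 0.0245). Cd81 (0.43), Tssc4 (0.03) and Osbpl5 (−0.42) were not called.

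In the induction series the cluster genes followed several courses. Osbpl5, which encodes an oxysterol-binding protein relative, was called at the same Dox times as Cdkn1c, higher at 72 h (1.30) and 96 h (1.28, limma) and not at the other times, although at a low level, with means of 2.35, 7.01 and 5.35 TPM at 0, 72 and 168 h. Ascl2 rose earlier, from 3.11 TPM at 0 h to 9.4 TPM at 16 h and 12.9 TPM at 48 h, and was called higher from 16 to 72 h (1.33 to 1.77 up to 48 h, limma, and 1.19 at 72 h). At 168 h Phlda2 (−2.96), Slc22a18 (−1.45), Ascl2 (−1.44) and Tspan32 (−1.35) were lower and Cd81 (1.52) and Tssc4 (1.02) higher than at 0 h (limma). Osbpl5 (0.91), Nap1l4 (0.079) and Dhcr7 (−0.74) were not called, while Cdkn1c was at −0.12 (adjusted p = 0.676 by limma). Phlda2 had means of 52.6, 63.7 and 5.86 TPM at 0, 72 and 168 h. Gm44732, the antisense gene over Cdkn1c, was higher at 72 h by 1.45 (limma adjusted p = 2.46e-05) and lower in XEN cells (−1.31, adjusted p = 0.000211). Of 9 cluster genes tested in XEN against 168 h cells, 0 were called by limma (3 at an unadjusted p under 0.05), while Cdkn1c was lower. Ascl2, Slc22a18 and Tspan32, with 168 h means of 0.501, 0.332 and 0 TPM, were too low there to fall by 1 on the log2(TPM + 1) scale. For them a lower call was not possible.

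The other CIP/KIP and INK4 inhibitors did not follow Cdkn1c under siOct4, but some were also higher at 72 or 96 h of Dox. Under siOct4, 0 of 5 were called by limma: Cdkn1a had 0.68, Cdkn2b 0.49, Cdkn2d 0.02, Cdkn1b −0.0032 and Cdkn2c −0.08 on the log2 scale, with 0 at an unadjusted p under 0.05 and 0 called with the replicate block. In the induction series limma called Cdkn1b (1.40) and Cdkn2d (1.46) higher at 72 h than at 0 h. The others had 0.95 (Cdkn2c), 0.24 (Cdkn1a), 0.21 (Cdkn2a) and −0.33 (Cdkn2b). At 96 h Cdkn1a (1.64), Cdkn2d (1.48) and Cdkn2c (1.12) were called, and Cdkn1b (0.82), Cdkn2b (0.35) and Cdkn2a (0.31) were not. Over all genes, 26.2% and 29.5% were called in either direction at these times. At 168 h, 5 of 6 inhibitors were higher than at 0 h, against 22.6% of all genes, and Cdkn2a had 0.89. In XEN cells Cdkn2a was higher than at 168 h (1.40, limma adjusted p = 6.65e-06). Cdkn1a, which encodes p21, went from 40.9 ± 3.68 to 341 ± 78.8 TPM (SD, n = 3; 3.01 on the log2 scale, limma adjusted p = 1.93e-11), and Cdkn1b, Cdkn2b, Cdkn2c and Cdkn2d had differences of 1.31, 1.02, 1.74 and 1.49. Of 7 G1 cyclins and cyclin-dependent kinases, 0 were called by limma under siOct4 (2 at an unadjusted p under 0.05), and with the replicate block Cdk2 was lower (−0.53, limma adjusted p = 0.0089). At 168 h 3 of 10 were lower (Cdk6 −3.98, Ccnd1 −3.28, Ccne1 −2.38) and 2 higher (Ccnd2 2.48, Cdk2 1.24).

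The HIF regulators beside Epas1 were measured next. Under siOct4, limma called 0 of the 4 tested, of which 0 had an unadjusted p under 0.05 (Egln3 0.30, Egln1 −0.08, Cited2 −0.23, Hif3a −0.34), and 0 of 22 HIF target genes (3 at an unadjusted p under 0.05), around a median of 0.15. With the replicate block 1 of these 22, the collagen prolyl hydroxylase gene P4ha2, was lower (−0.78, limma adjusted p = 0.00552). At 168 h, when Epas1 was at 269 TPM, Cited2 (4.12), Egln1 (2.86) and Egln3 (2.39) were higher and Hif3a (−1.22) lower (limma), while Hif1a had means of 47.3 TPM at 0 h and 60.1 TPM at 168 h (0.34) and Arnt of 41.9 and 41.6 TPM (−0.0072). Vhl (0.79), Hif1an (0.45), Egln2 (0.39) and Arnt2 (−0.76) were below the fold limit.

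Of 28 HIF targets tested at 168 h, 14 were higher and 2 lower, around a median of 0.94 against 0.09 for all genes. The largest rises were in Loxl2 (7.07), P4ha2 (6.81) and P4ha1 (6.28), whose products modify collagen, and the 2 lower were Pdk1 (−2.29) and Kdm3a (−1.01). In XEN cells, where Epas1 did not differ from 168 h beyond the threshold, 9 of the 28 were lower than at 168 h and 1 higher (9.17% of all genes were lower and 4.73% higher). The largest differences were in Egln3 (−2.64), Vegfa (−2.60) and Adm (−2.57), and Tek (1.45) was the 1 higher.

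For S100g, 7 other S100 genes and 2 calcium transport or vitamin D genes were tested under siOct4, and limma called 0 of the 9, with 0 at an unadjusted p under 0.05. At 168 h 4 of 8 S100 genes were higher, led by S100a1 (4.27), and 2 lower (S100a6 −2.09, S100a4 −1.84). In XEN cells S100a4 (2.40) and S100a6 (2.23) were higher than at 168 h, opposite in sign to S100g. Among the 4 calcium genes tested at 168 h, the calcium pump gene Atp2b1 was higher (1.66) and Calb2, which encodes calretinin, lower (−2.29). Ctps2, the gene around S100g, was not called at 168 h (0.51, limma adjusted p = 0.051) and was lower in XEN cells than at 0 h (−2.36, adjusted p = 9.18e-08).

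The 3 nearest tested genes on each side of each member, 24 in all, were examined for their place alone. Under siOct4, 13 of them were tested, and Phlda2 was the 1 called (limma). At 168 h 9 of the 24 were higher and 5 lower than at 0 h, against 22.6% and 16.5% of all genes. Around Epas1 the higher genes were Prkce (2.91), 95.8 kb away, Rhoq (2.89), Pigf (1.43) and Six2 (1.03), while Srbd1 (−0.55) and Cript (0.40) were not called. Around S100g, Syap1 was higher (1.40) and Txlng lower (−1.78), and Car5b (0.64), Ap1s2 (0.093) and Zrsr2 (−0.35) were not called. The nearest tested genes to 3830417A13Rik lay 1396.9 kb away or more. Fmr1nb (2.18) and 4933402E13Rik (1.15) were higher there, Gm14681 (−1.86) and the pseudogene Sms-ps (−1.48) lower, and Fmr1 (0.36) and Tslrn1 (−0.15) not called. R74862, on the far side of Cdkn1c from Phlda2, had −0.031.

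Beside the members, trophoblast markers moved most among the lists under siOct4: 9 of 20 tested rose and 0 fell, around a median of 1.39 against −0.12 for all genes. Of all genes tested, 0.942% were higher and 1.72% lower. The list was drawn up with earlier results of these data known. It holds Krt19, Rhox6, Rhox9 and Krt18, which ranked 4, 6, 7 and 8 by this same rise. The count is therefore a description and no independent support. Rhox6 went from 47 ± 19.9 to 232 ± 87.5 TPM and its near paralog Rhox9, with which it may share reads, from 45.6 ± 18.5 to 216 ± 90.5 TPM (SD, n = 6; limma adjusted p = 0.0024 and 0.00192). The keratin gene Krt18 went from 69.1 ± 14 to 337 ± 140 TPM (2.20 ± 0.24 SE, limma adjusted p = 0.000297). Krt8, Krt19, Plac1, Gata2, Sct and Ascl2 made up the rest. In the induction series, 6 of 22 trophoblast markers tested were higher and 3 lower at 168 h than at 0 h (limma), against 22.6% and 16.5% of all genes. Among the 9, Krt8 (5.41), Krt18 (4.79), Plac1 (2.37), Krt19 (1.43) and Sct were higher and Ascl2 lower at 168 h, and Krt8 stood at 433 TPM in XEN cells. Of 28 markers listed, 20 were given for the siRNA series, and Gata3, Elf5, Tfap2a and Ets2 were among those absent and not testable there. The trophectoderm regulators Cdx2 (0.65), Eomes (−0.54) and Tead4 (−0.34) were not called under siOct4, while Gata2 (1.59) was. The count was 6 to 9 when 1 pair was left out and 13 higher with 2 lower under the replicate block. The block added Krt7 (1.62), Hand1 (1.54), Dlx3 (1.24) and Tfap2c (1.11) as higher, and the lower genes were Klf5 (−0.86) and Fgfr2 (−0.61).

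Visceral endoderm markers went the other way, with 2 of 13 lower, the endocytic receptor genes Cubn (−2.55) and Amn (−1.43), and with 6 lower under the replicate block. Of 18 parietal endoderm markers 3 were higher (Krt19, Cyp26a1 2.02, Plat 1.25) and 1 lower (Srgn −1.31), and of 13 ES cell markers Pou5f1 alone was called by limma. With the replicate block 3 were higher and 3 lower of the parietal and 3 lower of the ES cell markers. Of 9 feeder markers limma called 0, with 0 at an unadjusted p under 0.05. The summed trophoblast markers ranged from 456 to 766 TPM in siCTL and from 917 to 2194 TPM in siOct4 libraries, without overlap. Their part in the members' values was not tested.

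**Figure D4:**
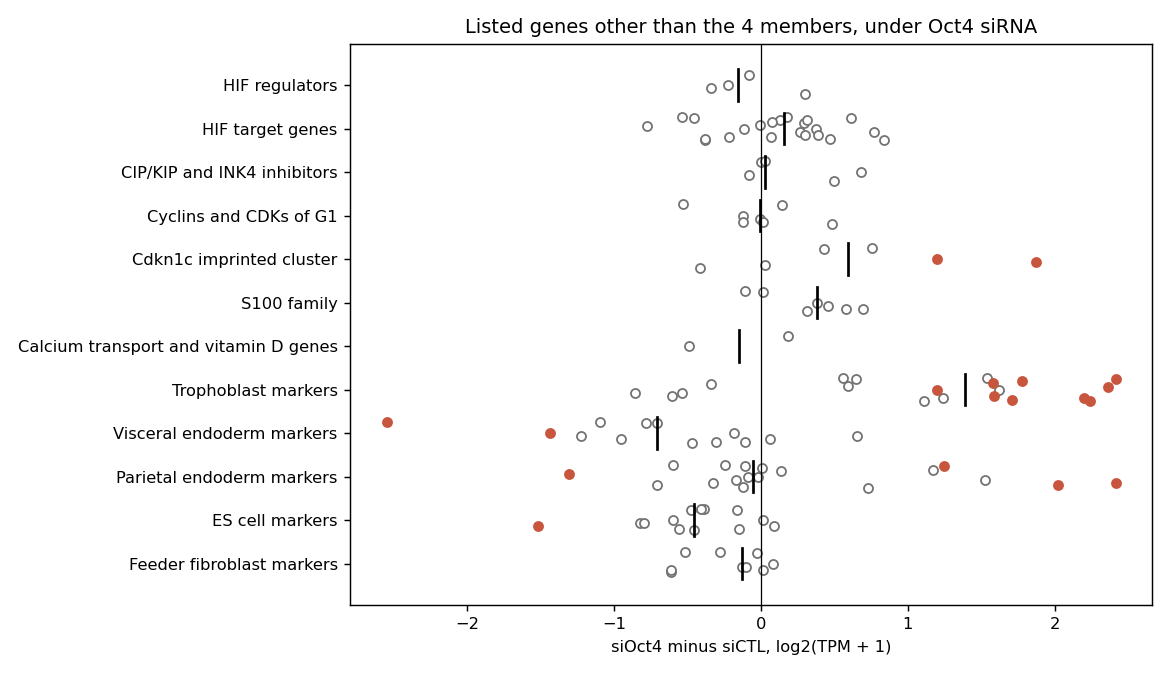
Difference between siOct4 and siCTL on the log2(TPM + 1) scale for each tested gene of 12 lists, members left out. Filled points were called by limma, open points were not, and bars give list medians, of which that of the trophoblast markers, 1.39, is the highest.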

How the data were processed

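RNA-seq of 35 libraries was used, grouped by their titles: 23 induction libraries and 12 siRNA libraries, each set in a table of its own. Per the study's methods and the submitters' processing notes (bcl2fastq, cutadapt, STAR, RSEM, mm10), the authors prepared stranded polyA libraries, quantified genes with RSEM and deposited TPM, after omitting outliers found by principal component analysis. Tool versions and the gene annotation are not given in the sources used here. The siRNA table lists 6275 genes that the authors called GATA6-responsive, and its text columns with the authors' own response classes were not used. The authors' group means were only compared with the means of the induction libraries, as a check of scale, and entered no result. All columns of single libraries were matched to a title. TPM keep no read numbers, so the depth is unknown and replicate spread is the measure of error. The methods name independent replicates and knockdowns, which the titles do not.

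For 60 symbols that occurred on several rows, only the row of highest mean was used. Genes that reached 1 TPM on average in any group were tested on log2(TPM + 1), which understates changes of low genes, with limma 3.58.1 in R 4.3.3 (trend and robust options, 1 coefficient per group) and Benjamini-Hochberg adjustment over all genes tested. Calls needed an adjusted p under 0.05 and a log2 difference above 1 (induction) or 0.5 (siRNA). The test was first run on simulated data. Python 3.11.15 with pandas 2.3.3 and matplotlib 3.10.9 did the rest.

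The members and all gene lists were chosen with earlier results of these data known. Named genes were the members, Pou5f1, Gata6 and Krt19, all tested HIF regulators, CIP/KIP and INK4 inhibitors and genes of the Cdkn1c cluster, up to 3 called genes of largest change in each direction of the other lists, the 3 genes most like each member over group means, and the 3 nearest tested genes on each side of each member. Krt18, the other trophoblast calls, Cdx2, Eomes, Tead4 and genes named for a call with the replicate block were chosen after their values were seen. In the siRNA series, deviations from group means of same-numbered libraries correlated above 0.1 in 6 of 6 pairs (mean 0.328). Of 30 pairs with different numbers, 10 were also above 0.1, up to 0.459 (mean −0.064). The numbers may therefore pair these samples, but the main siRNA fit had no block. Alternatives were a pseudocount of 0.1, no filter, median-of-ratios scaling, a replicate block, fits with only the compared groups and leaving out each library or pair. Averaging consecutive libraries and leaving out pairs for listed genes were added after the data were seen.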

Additional observations from a re-analysis of the deposited data

Results flagged for a closer look

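Among the 12 sets of 6 siRNA libraries screened (the 4 members, Pou5f1 and Gata6 in each group), 1 value stood far from the other 5, which is near the 0.6 that chance gives. Gata6 in siCTL replicate 4 was at 7.64 on the log2(TPM + 1) scale (198 TPM), while the other siCTL libraries lay between 6.55 and 6.82. The same library had the highest Epas1 of its group, 8.51 TPM, and the highest summed parietal endoderm markers, 13921 TPM. Without pair 4, the differences between siOct4 and siCTL were 3.08 for S100g, 2.53 for 3830417A13Rik, 2.42 for Epas1 and 2.41 for Cdkn1c.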

How the results depend on the processing

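TPM hold no depth, and groups of 2 or 3 libraries limit the induction tests. Of 564 single member results under alternatives, 543 kept their direction and side of the threshold. With a pseudocount of 0.1, 2 members in place of 1 were called at 24 h (S100g, 2.16, added) and 2 in place of 1 from 24 to 48 h (3830417A13Rik, 1.11, added). From 72 to 96 h the 2 called members became 1, by the loss of S100g, with a pseudocount of 0.1, 1 without the filter, 1 with the replicate block, 0 with only the compared groups, where Epas1 was lost too, and 1 to 2 when 1 library was left out. The induction numbers are shared labels only (16 of 77 same-numbered pairs over 0.1, mean correlation 0.0333), and the replicate block changed no other count of members called there. Differences near 0 changed sign without 1 library. Cdkn1c at 48 h ranged from −0.0156 to 0.51 and at 168 h from −0.44 to 0.0871, Epas1 at 72 h from −0.19 to 0.21, and 3830417A13Rik at 168 h from −0.0152 to 0.45 and from 16 to 24 h from −0.0902 to 0.34. Over all lists, genes called higher under siOct4 went from 12 to 0 and lower from 4 to 0 with consecutive libraries averaged, where the 6 libraries of a group became 3 (smallest limma adjusted p 0.0558). Lower calls became 7 with median-of-ratios scaling, 16 with the replicate block, and 3 to 7 without 1 pair (7 without pair 3). Over all genes, 27 to 63 were higher and 39 to 177 lower without 1 pair, against 59 and 108 with all. The cause of these changes was not tested. The members' own siRNA differences stayed within 1 SD in every alternative, which is no support for them, because these differences chose the members. The replicate block and the averaging of consecutive libraries leave the mean difference unchanged. Leaving out 1 of 6 pairs cannot move a mean by 1 SD.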
